A study of Mus musculus with 6 samples.

Results

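The 10 genes described here were the tumour suppressor Trp53 and 9 of its targets that arrest the cell cycle or feed back on p53, namely Cdkn1a, Mdm2, Ccng1, Sesn1, Sesn2, Trp53inp1, Zmat3, Phlda3 and Btg2. They were chosen by name, with earlier results of these data known, and all 10 were found among the 55471 genes of the deposited count files. The study had already reported higher levels of Trp53inp1, Sesn2 and Zmat3 from these same RNA samples, and the p53 pathway among those enriched in its changed genes. In other embryos it found more cells with phosphorylated p53 in Rx-Dicer mutants. When p53 was removed as well, it found less apoptosis, and most embryos formed no rosettes of progenitor cells. RNA was sequenced from the rostral tip of the developing telencephalon of E11.5 mouse embryos, in 3 control and 3 Rx-Dicer samples. Controls were Dicer F/F embryos, carrying 2 floxed Dicer alleles and no Cre, and were labelled WT. Rx-Dicer embryos were RxCre-Dicer F/F, so that Cre under the regulatory sequences of Rax removed the floxed part of Dicer in cells that had expressed the driver. Both groups thus shared the floxed alleles. The Rx3-Cre line was kept on a CD1 background and the floxed line on C57BL/6. According to the study, recombination was strongest in the rostral and ventral telencephalon and weaker in the neocortex at this age. The labels do not say whether a sample was 1 embryo or a pool, so that the p-values measure the spread between these samples.

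Dicer cuts microRNA precursors into their mature form, and its loss removes most mature microRNAs from a cell. The p53 protein is a transcription factor that is kept scarce by Mdm2, the ubiquitin ligase that marks it for degradation, and that accumulates after DNA damage and other stress. Accumulated p53 binds response elements near its targets, and 1 of these is Mdm2 itself, which closes a feedback loop. Its regulation lies largely in protein stability, so that the level of the Trp53 mRNA need not follow the activity of the protein. Neural progenitors of the early telencephalon are known to be sensitive to p53.

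Of the 10 members, 5 rose in Rx-Dicer samples and none fell. Ccng1 rose 2.91-fold, Sesn2 1.92-fold, Btg2 1.83-fold, Trp53inp1 1.60-fold and Zmat3 1.41-fold. These calls came from DESeq2's Wald test, with adjusted p under 0.05 over all genes and a log2 fold change beyond 0.32 in either direction. Across the genome 502 of 17128 tested genes, or 2.93%, were called, of which 300 (1.75%) were higher and 202 (1.18%) lower. The median log2 fold change was 0.74 over the 10 members and -0.00087 over all genes tested. All 10 members passed the filter on low counts. The second test, edgeR's quasi-likelihood test, gave near-identical fold changes but called 0 of the 10 members, and 8 genes in all, each of them higher and together 0.0446% of those it tested. Its unadjusted p was under 0.05 for 7 of the 10 members, against 12.9% of the genes it tested.

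The library labelled Rx-Dicer 2 stood apart from the other 2 of its group. Dicer1, the targeted gene, had 6355, 7070 and 6270 normalised counts in controls 1, 2 and 3, and 4777, 7002 and 4644 in the libraries labelled Rx-Dicer 1, 2 and 3. The level in the library labelled Rx-Dicer 2 thus lay inside the control range. The fold change of Dicer1 on the log2 scale was -0.26 ± 0.17 (SE), with an adjusted p of 0.567 by DESeq2, and without this library it was -0.47 ± 0.11, with an adjusted p of 0.000881. These counts cover the whole gene and not the floxed part alone. The total counts per library ranged from 34471501 to 48373468.

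The dissected tissue also varied. Emx1, which marks the dorsal telencephalon, was lowest in the library labelled Rx-Dicer 2, at 921, against 2156 to 5286 in the other 5. Its relative Emx2 did not share this pattern. Emx2 was lowest in control 3, at 4997, and its 5466 in the library labelled Rx-Dicer 2 lay inside the control range. Dlx2, which marks the ventral telencephalon, was highest there, at 4079, followed by control 3 at 3044, against 717 to 1336 in the others. The summed level of 10 hypothalamic and optic genes was 2715 to 4886 in controls and 6414 to 8885 in Rx-Dicer samples, and 3 of the 8 tested members of that list were called higher (Otp, Vax1 and Otx2). The summed level of 10 microglia and macrophage genes was 1394 to 1668 in controls and 5384, 1536 and 3331 in the libraries labelled Rx-Dicer 1, 2 and 3. None of 10 endothelial and 10 erythroid genes was called, but their sums varied. The endothelial sum was 8550 to 9102 in controls and 11101, 11502 and 5250 in the libraries labelled Rx-Dicer 1, 2 and 3. The erythroid sum was 432241 to 1.00e+06 in controls and 455953, 356674 and 1.00e+06 in the same mutant order. Of 10 mesenchyme genes 1 was called higher (Foxd1), and of 12 early neuron genes 1 was called higher (Nefm). Of 15 telencephalic progenitor genes Six3 was called higher and Pax6 lower. Beside these counts, 1.75% of all genes tested were called higher and 1.18% lower. In bulk tissue, fewer cells of a type and less RNA per cell cannot be told apart. The part of these differences in the results on the members was not tested.

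**Figure D1:**
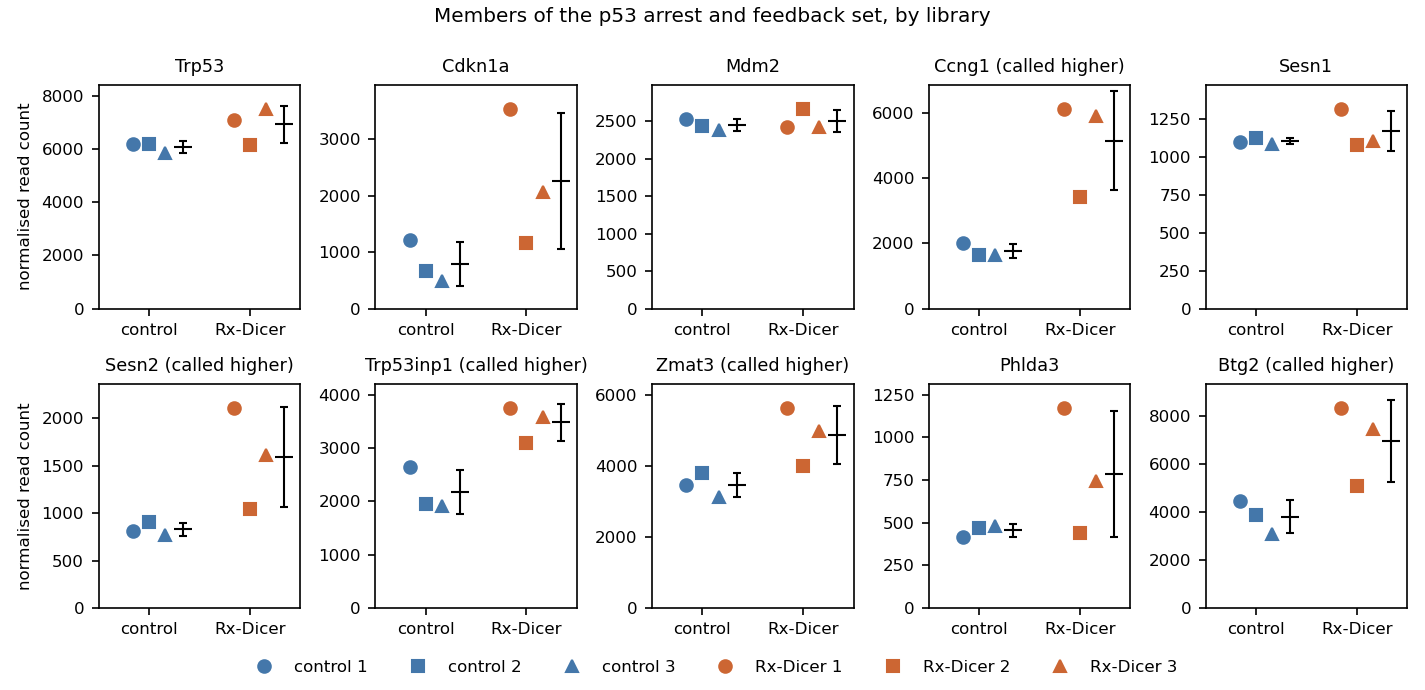
Normalised read counts (y axis, linear from 0) of the 10 members in the 3 control (blue) and 3 Rx-Dicer (orange) libraries, with the mean and SD of each genotype in black. Circles, squares and triangles are replicates 1, 2 and 3. Ccng1 lies between 1645 and 2020 in controls and between 3410 and 6134 in Rx-Dicer samples, while Mdm2 and Sesn1 overlap.

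Trp53 itself, at chromosome 11, 69580359-69591873 on the plus strand (ENSMUSG00000059552, GRCm38), was not called. It had 6187, 6211 and 5840 normalised counts in controls and 7086, 6172 and 7526 in the libraries labelled Rx-Dicer 1, 2 and 3. The groups overlapped through the library labelled Rx-Dicer 2, which lay within the control range. On the log2 scale the difference was 0.19 ± 0.12 (SE, 3 against 3) with an adjusted p of 0.560 by DESeq2, and its 95% interval ran from -0.05 to 0.42. At 1503 ± 51.3 (SD) normalised counts per kb of exon in controls, Trp53 was the highest of the 10 members per length in this tissue.

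Mdm2 (ENSMUSG00000020184, chromosome 10, 117688875-117710758, minus strand), the negative regulator of p53 and one of its classical targets, had 2533, 2430 and 2377 normalised counts in controls. In the libraries labelled Rx-Dicer 1, 2 and 3 it had 2425, 2669 and 2418. The groups overlapped, and the highest value was in the library labelled Rx-Dicer 2, the lowest of the 3 mutants for the other 9 members. That library was the lowest mutant for 6802 of the 17128 genes tested. The log2 fold change was 0.03 ± 0.11, with a 95% interval from -0.19 to 0.26 and an adjusted p of 0.969, so that the interval left out a rise as large as that of any of the 5 called members. Its relative Mdm4, which binds p53 without strong ligase activity of its own, was not called either (log2 fold change 0.25 ± 0.15, adjusted p 0.517).

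Cdkn1a (ENSMUSG00000023067, chromosome 17, 29090976-29100727, plus strand) encodes p21, the cyclin-dependent kinase inhibitor through which p53 arrests the cycle. It had 1218, 676 and 482 normalised counts in controls and 3548, 1159 and 2076 in the libraries labelled Rx-Dicer 1, 2 and 3. Control 1 and the library labelled Rx-Dicer 2 overlapped, and the 2.53-fold range among controls was the widest of the 10 members. The difference was large but did not pass the test, at 1.51 ± 0.60 on the log2 scale, with a 95% interval from 0.34 to 2.69 and an adjusted p of 0.172. Without the library labelled Rx-Dicer 2 the adjusted p was 0.0492, and without control 1 it was 0.0370. In the other 4 fits that left out 1 library it was 0.311 to 0.557, and without the library labelled Rx-Dicer 1 the log2 fold change was 1.03. An antisense gene that covers 7.68% of the exon bases of Cdkn1a had at most 2.85 normalised counts in any library. Surface ectoderm genes, a list made after the data were seen, summed to 4064 normalised counts in control 1, 638 in control 2 and 2080 in control 3, and to 1744, 864 and 1154 in the libraries labelled Rx-Dicer 1, 2 and 3. Control 1 was the highest control for both Cdkn1a and this sum, controls 2 and 3 had opposite orders for them, and the 3 mutants had the same order. The part of that tissue in the result was not tested.

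Ccng1 (ENSMUSG00000020326, chromosome 11, 40748552-40755311, minus strand) encodes cyclin G1, which brings a phosphatase to Mdm2 and so belongs to the feedback on p53. It had 2020, 1645 and 1647 normalised counts in controls and 6134, 3410 and 5903 in the libraries labelled Rx-Dicer 1, 2 and 3. All 3 Rx-Dicer values lay above all control values, a separation shown by 8.55% of the genes tested. Its fold change on the log2 scale was 1.54 ± 0.20 with an adjusted p of 8.66e-11 by DESeq2 and of 0.0719 by edgeR. Leaving out each library in turn kept the DESeq2 call in 6 of 6 fits. Ccng1 had 504 ± 61.6 (SD) counts per kb of exon in controls and 1466 ± 430.0 in Rx-Dicer samples, close to the level of Trp53 per length.

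Sequences upstream of Cdkn1a and Ccng1 are shown because p53 acts through response elements in the DNA, and these were the only members whose promoter in the RefSeq table of GRCm38.p6 held a complete one. Promoters of 8 of the 10 members matched the table, as 250 bases before and 50 after each start (not Trp53inp1 and Zmat3). The search used the p53 consensus response element, a pair of decamer half-sites without spacer, and allowed 2 mismatches in 20 letters outside the invariant C and G of each half-site. The consensus reads the same on both strands. Capitals mark the matched element, which starts 51 bases before the upstream of 2 listed starts of Cdkn1a and 195 before that of Ccng1, with 1 mismatch in each. The stretches are chr17:29090729-29090975 on the plus strand and chr11:40755312-40755536 on the minus strand, and both end before the first annotated base of the transcript.
Cdkn1a: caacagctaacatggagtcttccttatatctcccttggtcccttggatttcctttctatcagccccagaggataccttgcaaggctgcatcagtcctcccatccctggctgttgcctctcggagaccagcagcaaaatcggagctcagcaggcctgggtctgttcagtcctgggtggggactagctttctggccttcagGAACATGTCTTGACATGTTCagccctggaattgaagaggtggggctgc
Ccng1: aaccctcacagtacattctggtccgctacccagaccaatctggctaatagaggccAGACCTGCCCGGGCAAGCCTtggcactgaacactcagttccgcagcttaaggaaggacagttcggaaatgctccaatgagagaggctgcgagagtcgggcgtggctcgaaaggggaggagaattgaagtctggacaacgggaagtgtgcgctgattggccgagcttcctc

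Of all 32851 promoters in the table, 0.326% held such a pair and 8.36% held a single perfect half-site. A single perfect half-site was also present in the promoters of Trp53 and Mdm2 and in 1 of 2 promoters of Sesn1, all 3 of which were not called. None was present in those of Sesn2, Phlda3 and Btg2. A match describes the letters of these windows only. Response elements of p53 targets often lie in introns or farther upstream, and such sequence was not analysed here.

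Sesn1 and Sesn2 encode sestrins, stress proteins that restrain the growth kinase mTORC1. Sesn2 (ENSMUSG00000028893, chromosome 4, 132492032-132510501, minus strand) had 815, 906 and 768 normalised counts in controls and 2111, 1047 and 1615 in the libraries labelled Rx-Dicer 1, 2 and 3. The groups did not overlap, although the library labelled Rx-Dicer 2 exceeded control 2 only narrowly. This log2 fold change was 0.94 ± 0.22 with an adjusted p of 0.00248 by DESeq2 and of 0.183 by edgeR. Without the library labelled Rx-Dicer 3 the adjusted p by DESeq2 was 0.0528.

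Sesn1 (ENSMUSG00000038332, chromosome 10, 41809935-41908424, plus strand) had 1101, 1123 and 1088 normalised counts in controls and 1319, 1080 and 1106 in the libraries labelled Rx-Dicer 1, 2 and 3. The groups overlapped, and the library labelled Rx-Dicer 1 alone lay above the controls. The log2 fold change was 0.08 ± 0.14, with a 95% interval from -0.18 to 0.35 and an adjusted p of 0.913. Its sign turned without the library labelled Rx-Dicer 1, to -0.016. The third sestrin, Sesn3, was not called (0.31 ± 0.11, adjusted p 0.125).

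Sesn2 is also a target of ATF4, the transcription factor of the response to amino acid shortage and unfolded protein. Of 14 ATF4 response genes, Sesn2 was called higher and the other 13 were not called in either direction, beside 2.93% called of all genes tested. The median log2 fold change over those 13 was -0.10. The part of ATF4 in the result on Sesn2 was not tested.

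Trp53inp1 (ENSMUSG00000028211, chromosome 4, 11156431-11174379, plus strand) encodes a nuclear protein that promotes the activity of p53 and links it to autophagy. It had 2648, 1948 and 1914 normalised counts in controls and 3755, 3099 and 3588 in the libraries labelled Rx-Dicer 1, 2 and 3. All 3 Rx-Dicer values lay above the highest control, which was control 1, and they were closer to each other than for any other called member, with an SD of 9.79% of their mean. Trp53inp1 rose by 0.68 ± 0.16 on the log2 scale with an adjusted p of 0.00238 by DESeq2 and of 0.152 by edgeR. Without control 2 the adjusted p by DESeq2 was 0.0582.

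Zmat3 (ENSMUSG00000027663, chromosome 3, 32334792-32366014, minus strand) encodes a zinc finger protein that binds RNA and takes part in the splicing and stability of transcripts. It had 3447, 3791 and 3119 normalised counts in controls and 5631, 3987 and 4974 in the libraries labelled Rx-Dicer 1, 2 and 3. The groups were separate, but the library labelled Rx-Dicer 2 stood only just above control 2. The log2 fold change was 0.49 ± 0.15 with an adjusted p of 0.0454 by DESeq2 and of 0.207 by edgeR. This call was the least firm of the 5, and of the 6 fits that left out 1 library it passed only in the fit without the library labelled Rx-Dicer 2, with an adjusted p of 0.000455 there and of 0.0801 to 0.240 in the others.

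Phlda3 (ENSMUSG00000041801, chromosome 1, 135766119-135769136, plus strand) encodes a small protein that competes with the kinase Akt for membrane lipids. It had 414, 466 and 482 normalised counts in controls and 1173, 437 and 741 in the libraries labelled Rx-Dicer 1, 2 and 3. The library labelled Rx-Dicer 2 lay within the control range, while the other 2 lay above it. The log2 difference was 0.79 ± 0.28, with a 95% interval from 0.24 to 1.33 and an adjusted p of 0.102, and without that library it was 1.08 ± 0.23 with an adjusted p of 0.000327. Without the library labelled Rx-Dicer 1 it was 0.37, with an adjusted p of 0.529.

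Btg2 (ENSMUSG00000020423, chromosome 1, 134075170-134079120, minus strand) encodes an antiproliferative protein that acts with the machinery that shortens poly(A) tails, and it is also known as a marker of progenitors about to produce neurons. It had 4478, 3867 and 3099 normalised counts in controls and 8365, 5083 and 7475 in the libraries labelled Rx-Dicer 1, 2 and 3. The groups did not overlap. The log2 fold change was 0.87 ± 0.19 with an adjusted p of 0.00115 by DESeq2 and of 0.172 by edgeR, and the DESeq2 call stood in 6 of 6 fits that left out 1 library.

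Btg2 differed in direction from the other genes of neurogenic progenitors. Of 15 such genes it was the only one called higher, and 5 were called lower (Eomes, Rnd2, Insm1, Hes6 and Neurod4). Of all genes tested, 1.75% were called higher and 1.18% lower. Eomes, the transcription factor of intermediate progenitors, fell by 0.59 on the log2 scale (adjusted p 0.0137 by DESeq2), and Rnd2, a small GTPase of migrating neurons, fell by 0.86 (adjusted p 0.0195). The median log2 fold change of the 14 genes other than Btg2 was -0.41, and all 14 estimates were below 0. Of all 17128 genes tested, 8539 had an estimate above 0. By edgeR none of the 15 was called, and 10 had an unadjusted p under 0.05, against 12.9% of the genes it tested.

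**Figure D2:**
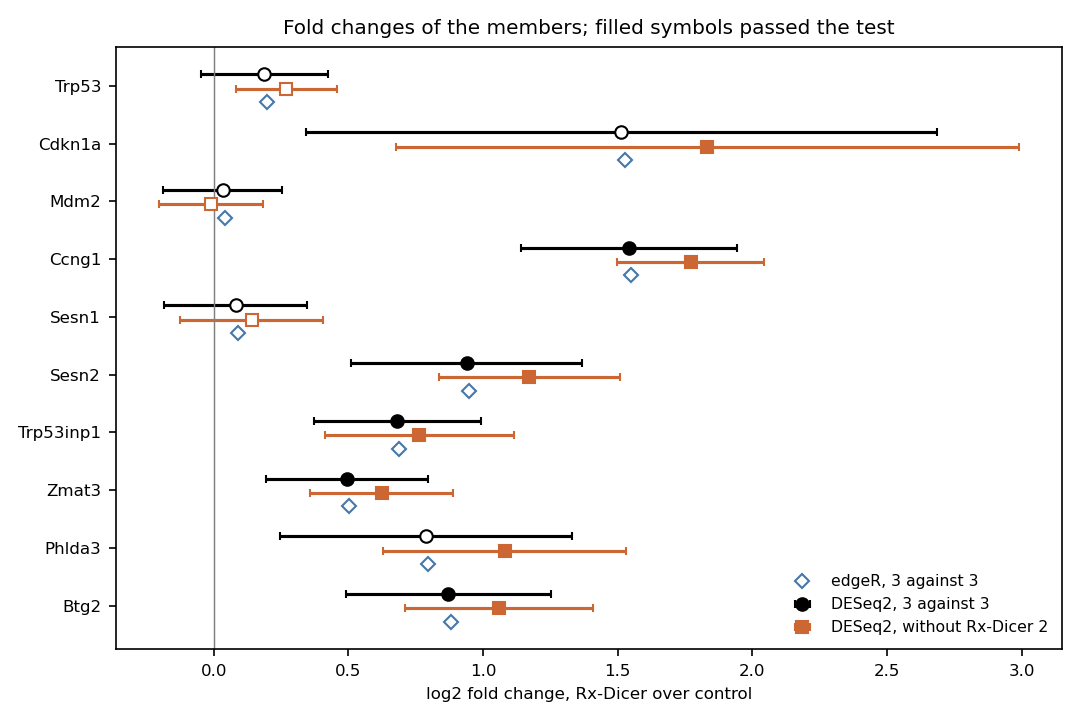
Log2 fold changes (x axis, Rx-Dicer over control) of the 10 members by DESeq2 with all 6 libraries (black, with 95% interval), by DESeq2 without the library labelled Rx-Dicer 2 (orange squares, with 95% interval) and by edgeR (blue diamonds). Filled symbols passed the test. With all libraries 5 members passed, without the library labelled Rx-Dicer 2 7 passed, and by edgeR 0 passed.

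The members shared an order among the mutants. In 8 of the 10 the library labelled Rx-Dicer 1 was highest, Rx-Dicer 3 next and Rx-Dicer 2 lowest, the exceptions being Trp53 and Mdm2. This order was found in 22.2% of the genes tested and in 35.0% of the 300 genes called higher. The library labelled Rx-Dicer 2 was the lowest mutant for 9 of the 10 members, and for 6802 of the 17128 genes tested. Against the control mean, Ccng1 was 3.46-fold, 1.93-fold and 3.33-fold higher in the libraries labelled Rx-Dicer 1, 2 and 3. For Btg2 these ratios were 2.19, 1.33 and 1.96, and for Cdkn1a 4.48, 1.46 and 2.62.

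For Dicer1 and for the microglia and macrophage sum alike, the library labelled Rx-Dicer 2 lay at the control level. In the other mutant libraries they moved in opposite directions. Dicer1 was lower in the libraries labelled Rx-Dicer 1 and 3 than in every control and at the control level in the library labelled Rx-Dicer 2. All 10 microglia and macrophage genes were highest in the library labelled Rx-Dicer 1 and lowest of the mutants in that labelled Rx-Dicer 2. Of the 10, 2 were called higher (Cx3cr1 and Csf1r), beside 1.75% of all genes tested. In the library labelled Rx-Dicer 2 the summed level of the 10 microglia and macrophage genes, 1536, lay within the control range of 1394 to 1668. Ccng1, Sesn2, Trp53inp1, Zmat3 and Btg2 lay above every control in that library, but these are the members called with that library included. Of the other members, Mdm2 also lay above every control there. Trp53, Cdkn1a and Phlda3 lay within the control range there, and Sesn1 lay below it. The part of microglia in the results on the members was not tested. Without the library labelled Rx-Dicer 2, 7 of the 10 members were called, with Cdkn1a and Phlda3 added to the 5.

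**Figure D3:**
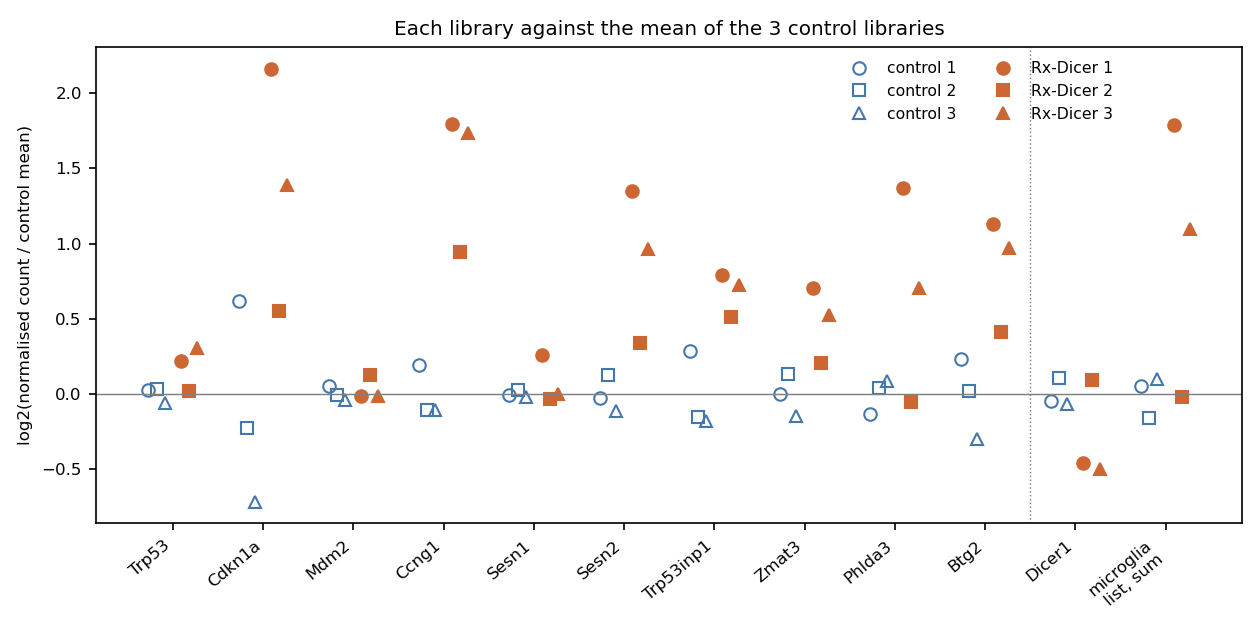
Log2 ratio of each library to the mean of the 3 controls (y axis) for the 10 members, for Dicer1 and for the summed microglia and macrophage genes. Open blue symbols are controls, filled orange symbols Rx-Dicer, and circles, squares and triangles are replicates 1, 2 and 3. The square of the library labelled Rx-Dicer 2 is the lowest orange symbol for 9 of the 10 members and lies at the control level for Dicer1 and the microglia sum. This library was the lowest mutant for 6802 of the 17128 genes tested.

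The order of the members by level, per kb of exon, changed between genotypes. In controls Trp53 (1503 ± 51.3, SD) and Btg2 (1391 ± 252) were highest and did not differ beyond their spread, and Ccng1 (504 ± 61.6) and Mdm2 (481 ± 15.7) followed at similar levels. Trp53inp1, Zmat3, Phlda3, Sesn1, Sesn2 and Cdkn1a lay between 335 and 223, and of the adjacent pairs in this order only Sesn1 (277 ± 4.53) and Sesn2 (239 ± 20.2) differed beyond their spread, taken as ranges of mean ± SD that do not overlap. In Rx-Dicer samples Btg2 was highest (2543 ± 619), beyond the spread of Trp53 (1713 ± 171) and Ccng1 (1466 ± 430.0), which came next and overlapped each other. Cdkn1a moved from the last place to the fourth (636 ± 339), with a spread that reached every member below it. The lengths are those of all annotated exons merged, so that these levels are approximate between genes.

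Of 65 regulators and further targets of p53, 62 were tested, and 5 of these (8.06%) were called, beside 2.93% of all genes tested. Of the 62, 4 (6.45%) were called higher, beside 1.75% of all genes, and 1 was called lower. Their median log2 fold change was 0.09. None of the 16 tested regulators was called, a list that holds the damage kinases Atm, Atr, Chek1 and Chek2. Cdkn2a, whose alternative product Arf restrains Mdm2, had 0 to 7.61 normalised counts per library and was not tested. None of 12 further arrest and feedback targets was called. Among these the arrest gene Gadd45a gave a log2 fold change of 0.03 ± 0.24 (adjusted p 0.987), and Ppm1d, which encodes the phosphatase that switches off p53, gave 0.09 ± 0.13 (adjusted p 0.894).

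Among 13 tested death genes, 2 were called higher, beside 1.75% of all genes tested. Eda2r, a receptor of the tumour necrosis factor family, had 142, 90.6 and 54.5 normalised counts in controls and 928, 280 and 630 in the libraries labelled Rx-Dicer 1, 2 and 3. Eda2r thus rose by 2.68 ± 0.61 on the log2 scale (adjusted p 0.00148). Tnfrsf10b, a death receptor, had 248, 200 and 232 in controls and 538, 394 and 415 in the same mutant order, with a log2 fold change of 0.99 ± 0.20 (adjusted p 0.000123). For both, all mutant values lay above all control values.

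Among 21 tested targets in repair and metabolism, Slc19a2 and Zfp365 rose and Abhd4 fell, beside 2.93% called of all genes tested. Slc19a2, a thiamine transporter, had 484, 572 and 460 normalised counts in controls and 1486, 928 and 1426 in the libraries labelled Rx-Dicer 1, 2 and 3, a log2 fold change of 1.34 ± 0.20 (adjusted p 7.24e-09). Zfp365, a protein of genome stability, changed by 1.17 ± 0.25 on the log2 scale (adjusted p 0.000382). Abhd4, a lipase, changed by -0.44 ± 0.12 (adjusted p 0.0206). By edgeR none of these 5 genes passed, with adjusted p from 0.0719 for Slc19a2 to 0.158.

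The close relatives of the members were not called. Of 18 paralogs 17 were tested and none passed, beside 2.93% of all genes tested, with a median log2 fold change of 0.20. By DESeq2, 5 of the 17 had an unadjusted p under 0.05, beside 13.1% of all genes tested. Cdkn1b and Cdkn1c, the other inhibitors of the p21 family, gave -0.17 ± 0.13 and -0.02 ± 0.17. Trp63, the p53 relative of surface epithelia, ranged from 6.11 to 318 normalised counts in controls alone. It had 24.9, 4.08 and 1.90 in the libraries labelled Rx-Dicer 1, 2 and 3. Its log2 fold change was -3.92 ± 1.52, with an adjusted p of 0.161 by DESeq2.

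p21 is known to repress genes of mitosis and replication through the DREAM complex. None of 20 such genes was called in either direction, beside 2.93% called of all genes tested. Of all 17128 genes tested, 8539 had an estimate above 0. Among the 20 the median log2 fold change was -0.10, and 17 of the 20 estimates were below 0. The smallest adjusted p among them was 0.206, for the phosphatase Cdc25c (-0.32 ± 0.13). By edgeR and by DESeq2 alike, 3 of the 20 had an unadjusted p under 0.05, beside 13.1% of all genes tested by DESeq2.

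**Figure D4:**
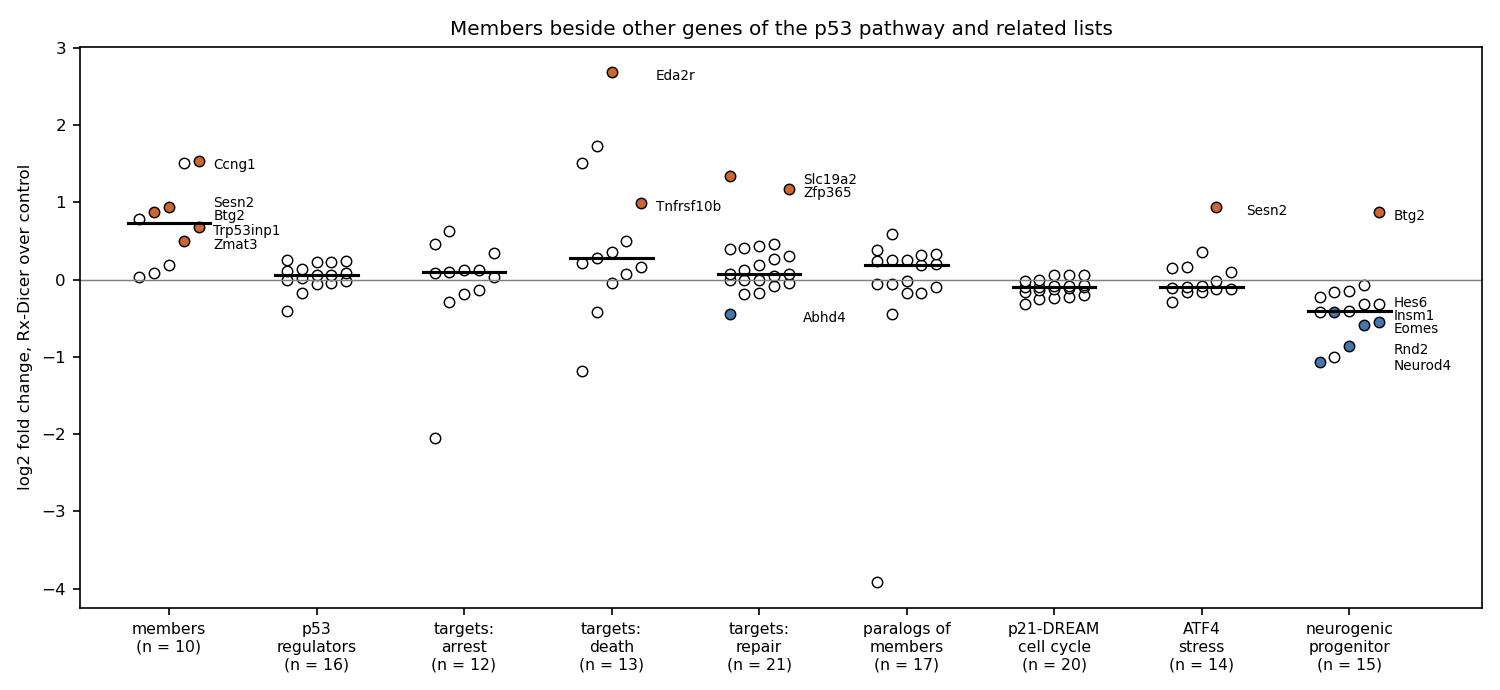
Log2 fold change (y axis, Rx-Dicer over control) of each tested gene in the members and 8 related lists, with the list median as a black bar. Orange symbols were called higher, blue symbols lower and open symbols not called, and called genes are named. The members have a median of 0.74, the 4 lists of other p53 pathway genes have medians between 0.06 and 0.28, and the p21 and DREAM cell cycle genes lie close to 0.

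The 5 genes whose pattern was most like that of Cdkn1a were ranked by Pearson's r of log2 normalised counts over the 6 libraries, among 12886 genes with a mean count of at least 100. They were Focad (r = 0.994), Minar2 (0.993), Ntng2 (0.990), Cpt1a (0.987) and Sh3bgrl2 (0.985), and none of them was called between genotypes. Cpt1a, the carnitine transferase of mitochondrial fat oxidation, came nearest, with a log2 fold change of 0.56 ± 0.18 and an adjusted p of 0.0642. Among the members, r with Cdkn1a was 0.977 for Btg2, 0.943 for Trp53inp1, 0.914 to 0.917 for Sesn2, Ccng1 and Zmat3, and 0.0687 for Mdm2. The points share the same 6 libraries, so that these values are a description.

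Since Dicer makes mature microRNAs, the 3′ UTRs of the members were searched for sites of 14 microRNAs known from neural progenitors or from p53 biology. In small RNA of this tissue and age the study reported only a few mature microRNAs as significantly reduced, most of them let-7. The microRNAs searched were thus not all reported as lost. Levels of the microRNAs themselves were not analysed here. Each site searched was the complement of the seed (bases 2 to 8, in capitals below) followed by A, on the transcript strand, and the sites of miR-19b-3p and miR-130a-3p overlap in the letters TTGCAC. The mature sequences with a site in any member come from RefSeq and are shown 5′ to 3′.
miR-9-5p: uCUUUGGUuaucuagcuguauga
miR-92a-3p: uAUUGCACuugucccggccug
miR-25-3p: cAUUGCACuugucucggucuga
miR-19b-3p: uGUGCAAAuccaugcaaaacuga
miR-130a-3p: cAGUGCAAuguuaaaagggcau

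miR-92a-3p and miR-25-3p share 1 seed. Sites were present in 4 of the 10 members, namely Ccng1, Btg2, Phlda3 and Zmat3, of which Phlda3 was not called. Stretches of 30 bases around the sites, with the site in capitals, show where the letters of these microRNAs would pair.
Ccng1, for miR-9-5p: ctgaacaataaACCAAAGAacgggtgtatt
Ccng1, for miR-130a-3p: aaatgtatttaTTGCACTAaagttagttta
Btg2, the first for miR-92a-3p: tctcagtcactGTGCAATAgtcccaggatg
Btg2, the second for miR-92a-3p: tttgtagatgtGTGCAATAtttactgttct
Phlda3, for miR-19b-3p: tgtaccctttcTTTGCACActtcttccctc
Zmat3, the first for miR-130a-3p: caagcaggattTTGCACTAtaacaaataca
Zmat3, the second for miR-130a-3p: tctgtatttctTTGCACTAgagagagtgat

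The miR-9-5p site of Ccng1 starts at base 2131 of a 3′ UTR of 2316 bases (GENCODE M21), and 6.95% of 3′ UTRs of like length (from 0.8 times its own to the inverse of that ratio) hold such a site. For the other sites this share was 3.25% for miR-130a-3p at the length of Ccng1, 3.44% for miR-92a-3p at that of Btg2, 2.79% for miR-19b-3p at that of Phlda3 and 7.57% for miR-130a-3p at that of Zmat3. Each seed was searched in each member. For pairs without a site the share ran from 0.433% (miR-130a-3p, Trp53) to 18.1% (miR-19b-3p, Zmat3). Some sites are thus expected in a search of this size, and their number was not compared with that expectation. No site for let-7, the miR-17 family, miR-125b, miR-34a or miR-21a was found in any member, and Cdkn1a, Sesn2 and Trp53inp1 held none for any of the 14. The absence of a match says only that these letters are not in the annotated 3′ UTR. Shorter matches, such as the complement of the seed without the A, were not searched.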

How the data were processed

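Total RNA of 6 dissected samples (3 control, 3 Rx-Dicer) was made into strand-marking libraries and read as pairs of 100 bases. Per the labels the authors used Trim Galore (version 0.6.5) for trimming, aligned the reads with HISAT2 to GRCm38.p6 and counted reads per gene with HTSeq (0.12.4; union mode, reverse strand, per the study's methods), and deposited raw counts in 2 files per sample. The 2 files of a sample differed by a chi-square per degree of freedom of 1.13 to 1.52, against 22.5 to 32.6 between samples of a group, and were summed. Tally rows that name no gene (24.9% to 31.0% of reads) were left out. Of 55471 gene identifiers, 55144 matched GENCODE M21.

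All genes were fitted with DESeq2 (1.42.0, R 4.3.3; median-of-ratios scaling, genotype as the only term, Wald test, Benjamini-Hochberg adjustment over all genes, independent filtering), the tool of the study. A gene was called at adjusted p under 0.05 and a log2 fold change beyond 0.32. edgeR (4.0.16) quasi-likelihood tests on genes with at least 10 counts in 3 libraries, TMM factors, filters, a replicate block, each file alone and each library left out were alternatives. Intervals are 95% Wald intervals. Fits were also run on simulated counts with the same dispersion for all genes and no outlying library. Those settings differ from the data here, so that the run does not bear on the calls above.

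The members and lists were chosen with earlier results of these data known, and the surface ectoderm list was added after its genes were seen to vary. From each list the text names up to 3 called genes with the smallest adjusted p, and a gene named beyond these was chosen after its values were seen. One marker gene of the tissue is not reported here.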

Additional observations from a re-analysis of the deposited data

How the results depend on the processing

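Under edgeR 8 genes, 0 members and 0 of the other p53 pathway genes were called, against 502, 5 and 5 with DESeq2. Without independent filtering 322 genes and 4 members were called. With the replicate block 314 genes, 5 members and 6 other p53 pathway genes were called; Cdkn1a entered (adjusted p 4.77e-07) and Zmat3 left (0.134). Deviations of same-numbered libraries correlated at 0.173, 0.0330 and -0.132, and those of differently numbered ones at -0.171 to 0.160. With 3 libraries a genotype these values cannot decide whether the numbers pair the samples. The study compared mutants with control littermates, and whether a shared number marks a shared litter was not tested. Leaving out 1 library gave 285 to 637 genes, 3 to 7 members, 4 to 8 other p53 pathway genes, and a log2 fold change of Dicer1 of -0.47 to -0.16, which passed the test only without the library labelled Rx-Dicer 2. The 3 members were left without control 2 (Ccng1, Sesn2 and Btg2) and without the library labelled Rx-Dicer 3 (Ccng1, Trp53inp1 and Btg2), and the 285 and 309 genes belong to the same 2 fits. The 8 other genes were those without control 1. With 1 library left out Mdm2 ranged from -0.0096 (without the library labelled Rx-Dicer 2) to 0.058 and Sesn1 from -0.016 (without the library labelled Rx-Dicer 1) to 0.14, and with the second file of each sample alone Sesn1 was at -0.0030, all within their error. Of 140 fold changes of members under 14 alternatives, 119 kept direction and side of the threshold, 14 lost the call, 4 gained it and 3 changed sign. The cause of these changes was not tested, except that leaving out a library leaves fewer samples. With 3 libraries a genotype and up to 2.53-fold spread among controls, a change of the size seen in Cdkn1a could miss the threshold.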

Other observations

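Among the 46 tested p53 targets outside the 10 members, 13 had all 3 Rx-Dicer values above all 3 control values, as did 8.55% of all genes tested, and 9 of these 13 were not called. Pmaip1, which encodes the death protein Noxa, had 519, 65.2 and 118 normalised counts in controls and 899, 788 and 638 in the libraries labelled Rx-Dicer 1, 2 and 3, with a log2 fold change of 1.73 ± 0.85 and an adjusted p of 0.356 by DESeq2. Unlike most members, Pmaip1 was not lowest among the mutants in the library labelled Rx-Dicer 2, and its spread came largely from control 1. Pidd1, a death domain protein, and Apaf1, the core of the apoptosome, were also separate between genotypes (log2 fold changes 0.35 ± 0.13 and 0.21 ± 0.11, adjusted p 0.118 and 0.397). In the opposite direction, 5 of the 46 targets lay below all controls, beside 10.7% of all genes tested, and Siva1, an apoptosis-inducing factor, came nearest to the threshold among those not called (-0.42 ± 0.13, adjusted p 0.0604). These genes were chosen after their values were seen.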
